A study of Mus musculus with 63 samples.

Results

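Transcripts of 7 enzymes that break down tyrosine and tryptophan were followed across mouse intestinal tumours: *Hpd*, *Hgd*, *Gstz1* and *Fah* on the tyrosine route, and *Afmid*, *Kynu* and *Haao* on the tryptophan route. They are 7 of the 24766 genes in the expression table. They were chosen by name with the difference between major and minor clones already known, so the values of that contrast are given as a description, and counts of genes past the threshold in it, other genes included, are not evidence for the members. Polyadenylated RNA was sequenced from 63 libraries of small intestinal tumours of 2 C57BL/6 mice, 1 female and 1 male, so that mouse and sex cannot be told apart. In 20 heterotypic tumours, 10 from each mouse, the major and the minor clone were microdissected and sequenced apart (20 libraries each). Another 23 tumours (10 female, 13 male) were sequenced whole and are called undivided. The labels place the tumours in 3 stretches of the small intestine, SI10, SI20 and SI30, of which SI30 holds only 2 divided tumours of the female mouse. The clones of 1 female tumour carry different labels, SI20 for the major and SI10 for the minor clone.

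Both mice were *Apc* het: Villin-creERT2, an inducible recombinase active in the intestinal epithelium, removed 1 floxed *Apc* allele after 4 mg tamoxifen, given at an age of at least 8 weeks, and the same recombinase switched on the R26R-Confetti colour reporter. All 3 groups of libraries also share 200 mg per kg of ENU, a chemical mutagen, given 10 days after tamoxifen. No untreated tissue was sequenced here, so every comparison is between tumours. All 5 epithelial markers checked (*Epcam*, *Vil1*, *Cdx2*, *Krt20* and *Cdh1*) were expressed in every group, with a summed level of 82630 to 310900 normalised reads per library. Libraries summed to 26140200 to 45909900 normalised reads. In a piece of tumour, fewer cells of a type and less RNA per cell cannot be told apart.

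Tyrosine is degraded in a fixed order. The transaminase TAT makes hydroxyphenylpyruvate, the dioxygenase HPD turns it into homogentisate, HGD opens the ring, GSTZ1 isomerises the product and FAH splits it into fumarate and acetoacetate. Tryptophan enters the kynurenine route through TDO2 or the IDO enzymes, AFMID releases kynurenine, and KYNU and HAAO act further down, towards quinolinate and NAD. Both routes are best known from the liver, while IDO1 and the serotonin-making hydroxylase TPH1 are also known from the intestine.

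*Hpd* (ENSMUSG00000029445) lies on the minus strand at chr5:123309870-123320817 of GRCm39, overlapped on the other strand by *Psmd9*. *Hgd* (ENSMUSG00000022821) lies at chr16:37400515-37452388 on the plus strand. *Gstz1* (ENSMUSG00000021033, chr12:87193898-87225026, plus strand) and *Fah* (ENSMUSG00000030630, chr7:84232788-84255930, minus strand) complete the tyrosine route. *Afmid* (ENSMUSG00000017718, chr11:117716712-117730734, plus strand) overlaps the start of *Tk1* on the other strand and the model *Gm20708* on its own strand, so reads of the latter could have been shared with it. *Kynu* (ENSMUSG00000026866) lies at chr2:43445309-43572734 on the plus strand and *Haao* (ENSMUSG00000000673) at chr17:84138583-84155392 on the minus strand. The library kit keeps strand.

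The 250 bases before the start of *Hpd* and of *Hgd*, consecutive enzymes of which the first was well expressed and the second close to 0, are shown 5′ to 3′ with each E-box (CANNTG, the same pattern read on both strands) in capitals, because the bHLH factor *Atoh1*, to which *Hpd* is compared, belongs to a family that binds E-boxes. The *Hpd* window is chr5:123320818-123321067 on the minus strand of GRCm39 and the *Hgd* window is chr16:37400265-37400514 on the plus strand. Neither overlaps an annotated exon.
Hpd: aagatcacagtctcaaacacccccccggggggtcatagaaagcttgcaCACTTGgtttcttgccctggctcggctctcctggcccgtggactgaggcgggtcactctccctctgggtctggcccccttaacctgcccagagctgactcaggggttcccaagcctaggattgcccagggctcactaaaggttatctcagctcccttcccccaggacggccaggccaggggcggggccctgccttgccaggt
Hgd: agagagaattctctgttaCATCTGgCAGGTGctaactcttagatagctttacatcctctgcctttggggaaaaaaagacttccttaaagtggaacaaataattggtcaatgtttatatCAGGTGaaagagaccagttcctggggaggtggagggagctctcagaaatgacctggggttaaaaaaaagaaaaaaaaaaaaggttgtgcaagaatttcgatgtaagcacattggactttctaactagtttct
The *Hpd* window has 63.2% G and C and holds 1 E-box, CACTTG, at positions -202 to -197 from the start. The *Hgd* window has 38.8% G and C and holds 3, the first and second separated by a single base. At least 1 CANNTG stands in 64.8% of the same windows of 21770 protein-coding genes, and at least 3 in 10.7%. The narrower form CAGATG, read on either strand, is in 2826 of these 21770 windows, that of *Hgd* among them. The symmetrical form CAGCTG is in 11.9% of windows and in neither of these. Such matches are descriptions of letters, not binding sites.

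Distinct levels of expression were seen when values were divided by the length of the annotated exons. This length joins the exons of all annotated transcripts of a gene, 2635 bases for *Hpd*, 5052 for *Fah* and 10718 for *Gstz1*. The order of the members depends on that choice. In the undivided tumours *Gstz1* stood highest, at 92.7 ± 21.5 normalised reads per kilobase (SD, n = 23). *Afmid* (49.9 ± 20.3), *Fah* (49.1 ± 25.7) and *Hpd* (43.9 ± 25.3) followed within 1 SD of each other. *Kynu* stood at 3.15 ± 1.79, and *Hgd* (0.478 ± 0.508) and *Haao* (0.428 ± 0.523) came last and did not differ beyond their spread. The order within the middle group was not the same in the clones. In major clones *Hpd* (61.5 ± 26.3 per kilobase, n = 20) stood above *Afmid* (52.9) and *Fah* (42.9), whereas in minor clones *Fah* (53.9) stood above *Afmid* (38.3) and *Hpd* (35.1 ± 15.2). The spread of these means was 13.8 to 26.3, so neighbours in either order did not differ beyond it.

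*Hgd* and *Haao* were below the filter on low values and were left out of the model over all genes. *Hgd* ranged from 0 to 10.8 normalised reads over the 63 libraries, with a median of 1.42, and was listed at 0 in 22. *Haao* ranged from 0 to 16.5 with a median of 0.739 and was listed at 0 in 27. Transcripts of the ring-opening step after HPD, and of the last kynurenine enzyme considered, were thus close to the detection limit in these tumours. The other 5 members passed the filter of a mean of 10.

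*Hpd* was higher in the major than in the minor clone of all 20 divided tumours. In the major clones it had a lowest value of 74.3, a median of 155 and a highest value of 367 normalised reads. In the minor clones these were 30.3, 96.4 and 168. Over both mice the groups overlapped in level, with 13 of 20 minor clones above the lowest major clone. In the female mouse the median minor clone (113) was below the lowest major clone (154), and the highest minor clone reached 168. In the male mouse these values were 59.5, 74.3 and 129. On the log2(value + 1) scale the major minus minor difference averaged 0.83 (SD 0.39, n = 20), or 1.78-fold. It was smallest in tumour 26 of the male mouse, where 89.2 stood against 75.6 (0.23), and largest in tumour 28 of the same mouse, where 119.7 stood against 41.5 (1.51). The female mouse averaged 0.80 (SD 0.33, n = 10) and the male mouse 0.86 (SD 0.45, n = 10).

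**Figure D1:**
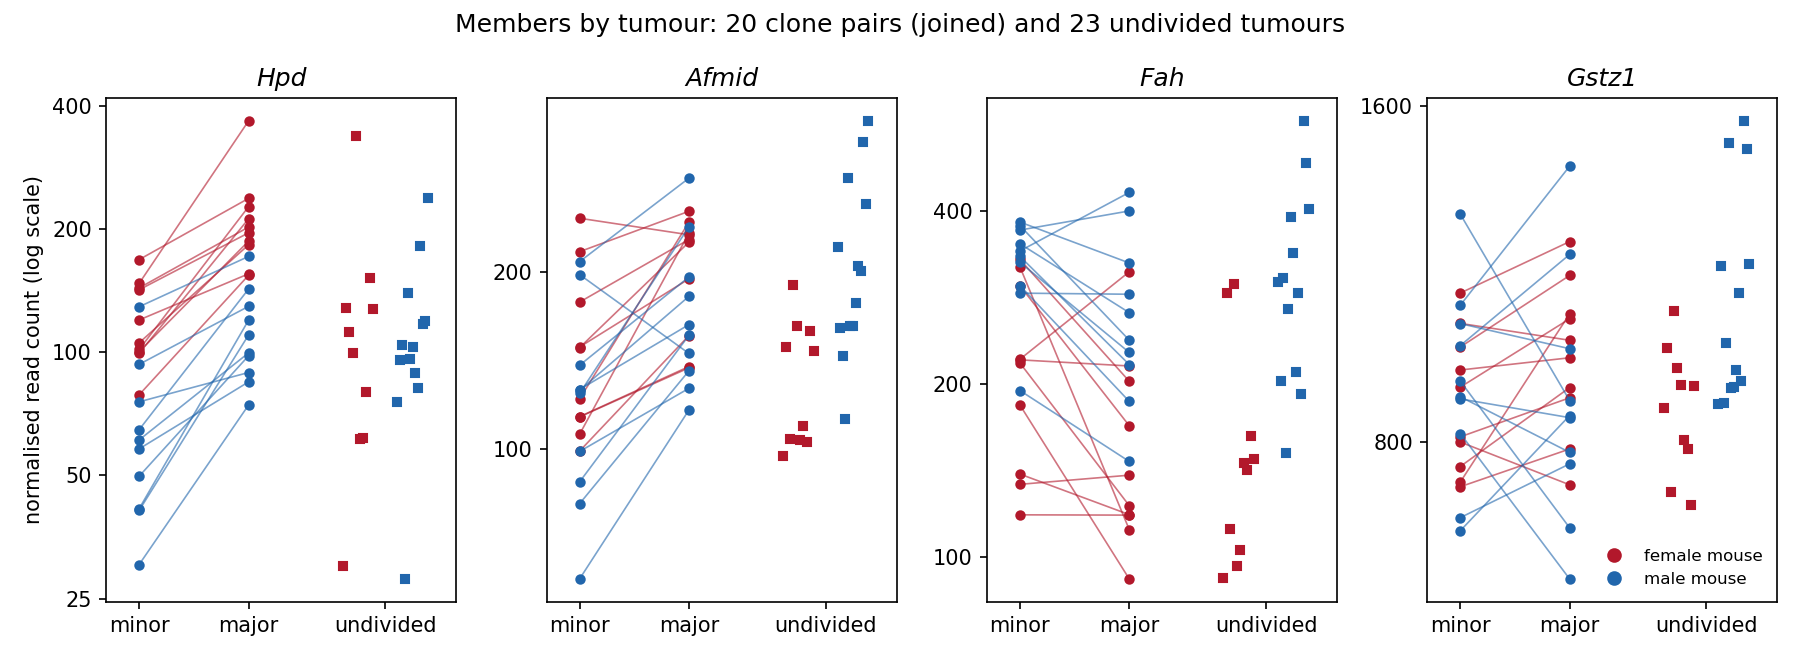
Normalised read counts (log axis) of *Hpd*, *Afmid*, *Fah* and *Gstz1* in minor and major clones, joined by tumour, and in undivided tumours, with 1 point per library and the mouse by colour. Every *Hpd* line rises from minor to major, 18 of 20 *Afmid* lines rise, 16 of 20 *Fah* lines fall and the *Gstz1* lines run both ways.

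The later tyrosine enzymes did not share the direction or the size of the *Hpd* difference. *Fah*, which carries out the last step, had a lowest value of 91.7, a median of 209 and a highest value of 431 normalised reads in major clones, against 119, 297 and 383 in minor clones. It was lower in the major clone of 16 of 20 tumours, by a mean log2 difference of -0.38 (SD 0.49), and the groups overlapped. The lowest difference was in tumour 26 of the female mouse, where 111.8 in the major clone stood against 320.2 in the minor clone (-1.51). The 4 tumours with more *Fah* in the major clone were tumours 19 and 28 of the female and tumours 22 and 23 of the male mouse. *Gstz1* averaged 929 ± 198 normalised reads in the major clones (SD, n = 20) and 895 ± 154 in the minor ones, a log2 difference of 0.04 (SD 0.28), higher in 12 of 20. *Hgd* had means of 2.07 and 1.94, with a log2 difference of -0.00 (SD 1.66).

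On the tryptophan route, *Afmid* was the member with the more regular difference. Its lowest, median and highest values were 116.6, 188 and 288 normalised reads in major clones and 60.3, 125 and 247 in minor clones. It was higher in the major clone of 18 of 20 tumours, with a mean log2 difference of 0.50 (SD 0.38), the exceptions being tumour 23 of the female and tumour 28 of the male mouse. The groups overlapped, with 12 of 20 minor clones above the lowest major clone. *Kynu*, which makes hydroxyanthranilate, had a lowest value of 1.28, a median of 18.3 and a highest value of 33.4 in major clones, against 0, 12.7 and 31.9 in minor clones. Its log2 difference was 0.30 (SD 0.90), higher in 12 of 20, with a mean of -0.09 in the female and 0.69 in the male mouse. *Haao* was 2.85 ± 4.42 in major and 1.38 ± 2.76 in minor clones, higher in 11 tumours, lower in 5 and equal in 4.

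**Figure D2:**
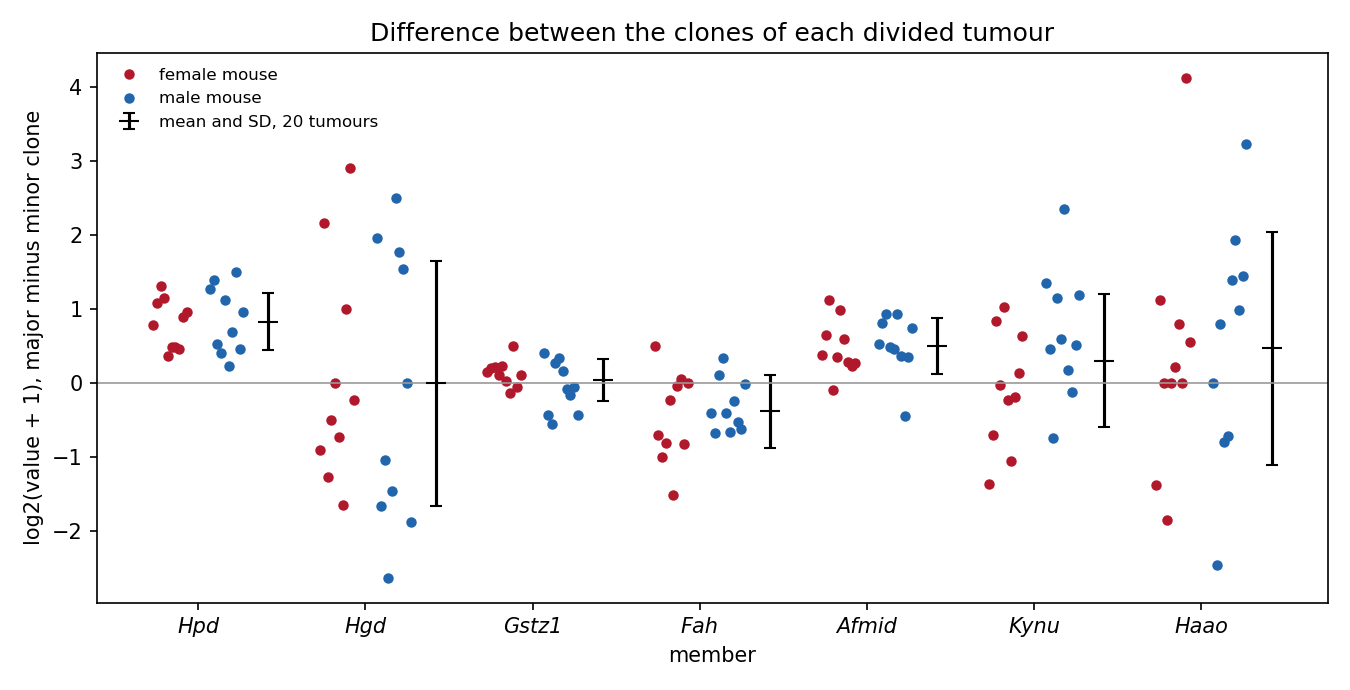
Difference of log2(value + 1) between the major and the minor clone of each of the 20 divided tumours, for the 7 members, with the mean and SD beside the points. All *Hpd* points lie above 0, most *Afmid* points above and most *Fah* points below it, and the 2 scarce genes *Hgd* and *Haao* spread widest.

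With the tumour as a block, 2 of the 5 members that passed the filter (*Hpd* and *Afmid*, both higher in major clones) were past an adjusted p of 0.05, where 1.14% of all 16428 genes were (188, of which 110, or 58.5%, were higher). After quantile normalization 38.5% of the calls were higher, and with libraries scaled to the same sum without *Rn18s* 27.7% were, while *Hpd* and *Afmid* kept their direction. Since the members were chosen on this contrast, nothing is read from that count. Whether the clone difference itself varied was tested with limma, a comparison that the choice of members did not use. Between SI10 tumours (n = 7) and SI20 tumours (n = 10), leaving out the 2 SI30 tumours and the tumour with both labels, 0 of 5 members passed, against 0% of 16436 genes (667 genes had an unadjusted p under 0.05). The *Hpd* clone difference was 0.95 (SD 0.38) in SI10 and 0.68 (SD 0.40) in SI20, a gap of 0.27 with a 95% interval of -0.19 to 0.73. Between the mice 0 of 5 passed as well, against 0% of 16428 genes (1257 with an unadjusted p under 0.05). The widest gap there was that of *Kynu*, -0.78 for female minus male (interval -1.61 to 0.04, limma adjusted p = 0.658).

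The 2 clones of a tumour shared part of their level. Pearson's r between the major and the minor clone was taken across the 20 tumours on log2 values centred within each mouse. It was 0.703 for *Kynu*, 0.646 for *Afmid*, 0.60 for *Hpd*, 0.519 for *Gstz1* and 0.446 for *Fah*. It was 0.120 for *Haao* and -0.155 for *Hgd*, the scarce genes. Centring takes out the mean level of each mouse, but the points come from 2 mice and share library preparation, and r is given as a description.

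Other genes of both pathways were described in the same contrast. Of 15 other genes of tyrosine, catecholamine and biopterin metabolism that passed the filter, 0 were past the threshold and their median log2 difference was 0.00. Among them were *Hpdl*, the relative of *Hpd* (0.15, SD 0.40, higher in 12 of 20), and *Tat*, the step before *Hpd* (0.67). Of 8 other tryptophan genes tested, 1 was past it and higher in major clones, *Tph1* (0.72). The serotonin pathway starts with this enzyme. Of 6 carriers of aromatic amino acids and of 7 genes of the aryl hydrocarbon receptor response, 0 were past it, with medians of 0.19 and 0.08. Across all genes the median was 0.01.

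Markers of several intestinal cell types also differed between the clones. Past the same threshold and higher in major clones were 3 of 9 goblet cell genes, 2 of 5 enteroendocrine genes tested and 1 of 9 enterocyte genes, and 0 of these lists were lower. Of all 16428 genes 1.14% passed in either direction. The summed goblet level ran from 107000 to 314000 normalised reads in major and from 28120 to 254400 in minor clones, and was higher in the major clone of 15 of 20 tumours. The summed enteroendocrine level ran from 1485 to 5419 and from 414.6 to 4625 and was higher in 16 of 20. The summed enterocyte level ran from 135300 to 1413000 and from 124600 to 1265000 and was higher in 13 of 20. The mean log2 differences of the goblet and enterocyte sums were 0.45 and 0.28. Sums of stromal (0.47, higher in 12 of 20) and macrophage genes (0.28, 14 of 20) were also higher in most major clones. So were those of Paneth (0.22, 12 of 20), stem (0.16, 12 of 20) and tuft cell genes (0.08, 12 of 20). None of these markers was at 0 in all libraries. Hepatocyte genes were looked at because both routes are best known from the liver. They summed to 129 to 2735 in major and 72.5 to 3112 in minor clones. Their sum was higher in the major clone of 12 of 20 tumours (mean log2 difference 0.56). None of the 4 hepatocyte genes tested was past the threshold, with values of 0.36 for *Alb*, 0.67 for *Tat*, 0.68 for *Ttr* and 1.12 for *Cyp2e1*, while *Serpina1a* and *Tdo2* were below the filter. The 18S ribosomal RNA *Rn18s*, which poly(A) selection is meant to remove, took a median of 1.24% of a library in major and 6.18% in minor clones. The part of these markers and of *Rn18s* in the clone differences was not tested.

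Undivided tumours were compared with divided ones through the mean of the 2 clones of each tumour, which does not use the clone difference. *Hpd* in undivided tumours had a lowest value of 27.9, a median of 103 and a highest value of 338 normalised reads, so that it reached below the lowest minor clone and overlapped both clone classes. The undivided tumour with the highest summed hepatocyte level (14390) held 112 normalised reads of *Hpd*. The relation of *Hpd* to the hepatocyte genes over these tumours was not tested. With mouse as a covariate, 0 of 5 members differed, where 0.121% of 16489 genes did (20, while 2431 had an unadjusted p under 0.05). The *Hpd* difference was -0.13 (SE 0.21, 95% interval -0.54 to 0.29, limma adjusted p = 0.819). The intervals were -0.06 to 0.27 for *Gstz1*, -0.41 to 0.20 for *Fah*, -0.19 to 0.39 for *Afmid* and -0.37 to 0.97 for *Kynu*. The interval of *Kynu*, the lowest of the 5, was the widest.

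**Figure D3:**
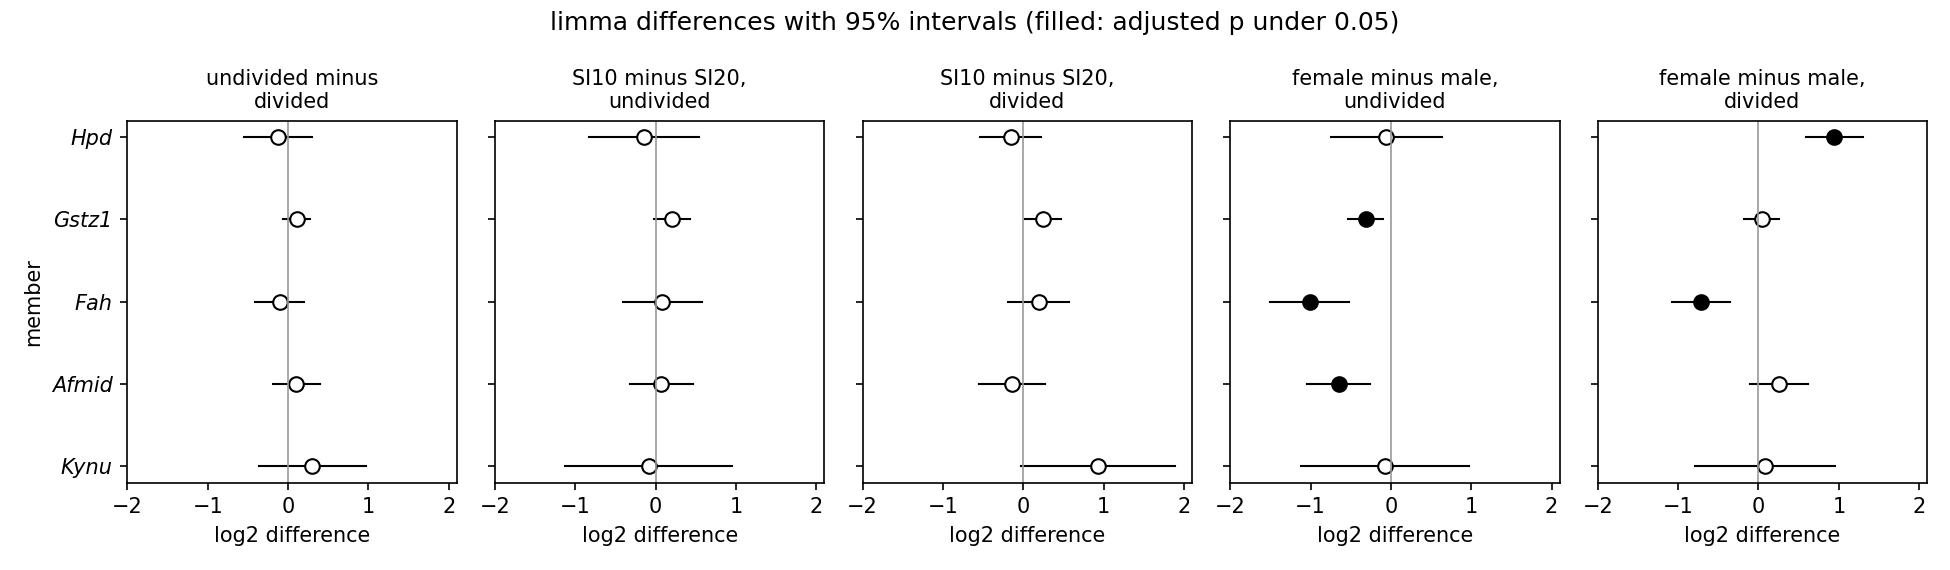
Differences on the log2(value + 1) scale from limma with 95% intervals for the 5 members that passed the filter, in 5 comparisons of undivided and divided tumours, segments and mice. Filled points have an adjusted p under 0.05: *Fah*, *Afmid* and *Gstz1* between the mice in undivided tumours, and *Hpd* and *Fah* between the mice in divided tumours.

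Position along the intestine was not followed by a detectable change of any member. In undivided tumours, *Hpd* was 115.5 ± 78.3 in SI10 (n = 12) and 115.7 ± 55.2 in SI20 (n = 11). There 0 of 5 members passed, against 0.17% of 16511 genes (28, with 1258 at an unadjusted p under 0.05). In divided tumours, taken as the mean of both clones, 0 of 5 passed, against 0.28% of 16436 genes (46, with 2358 at an unadjusted p under 0.05). *Kynu* had the widest difference there, 0.93 higher in SI10 (SE 0.46, interval -0.03 to 1.89, limma adjusted p = 0.357), while in undivided tumours it was -0.09 (interval -1.13 to 0.95). *Gstz1* was 0.25 higher in SI10 of divided tumours (interval 0.03 to 0.47, adjusted p = 0.311 with limma) and 0.20 in undivided ones (-0.02 to 0.43). The scarce *Hgd* was listed at 0 in 7 of 12 SI10 and 1 of 11 SI20 undivided tumours.

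The mice differed in 3 of the 5 members in undivided tumours, all lower in the female mouse. *Fah* had a lowest value of 92.2, a median of 144 and a highest value of 298 in the female mouse, against 152, 301 and 574 in the male mouse. The difference was -1.01 (SE 0.24, limma adjusted p = 0.00538), and 9 of 10 female tumours were below the male mean. *Afmid* had 97.4, 128 and 190 against 112, 201 and 361, a difference of -0.65 (SE 0.19, limma adjusted p = 0.0200). *Gstz1* had 703, 878 and 1048 against 866, 981 and 1551, a difference of -0.31 (SE 0.11, limma adjusted p = 0.0431). The ranges overlapped for each. Tumours 15, 17 and 18 of the male mouse were above the male medians, at 574, 486 and 404 for *Fah*, 333, 261 and 361 for *Afmid*, and 1551, 1464 and 1155 for *Gstz1*. Single tumours were not left out in this comparison, so its dependence on them was not tested. Of all 16511 genes 19.1% differed between the mice, so that a count of 3 of 5 stands against a high background. With libraries scaled to the same sum without *Rn18s*, *Afmid* (-0.51, limma adjusted p = 0.087) and *Gstz1* (-0.17, 0.378) lost their call and *Fah* kept it (-0.87, 0.0228). *Rn18s* itself averaged 1124240 normalised reads in the female and 2631430 in the male mouse in these tumours, and its part was not tested. Without the filter on low values *Hgd* was 1.14 higher in the female mouse (limma adjusted p = 0.0274), the opposite direction. *Hpd* was not among the 3, at 119 ± 85.3 in the female and 113 ± 51.8 in the male mouse, a difference of -0.05 (interval -0.75 to 0.64).

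In divided tumours *Hpd* did differ between the mice. This comparison, on the mean of both clones, was added after the data had been seen. Major clones of the female mouse had a lowest value of 154, a median of 199 and a highest value of 367 normalised reads, and those of the male mouse 74.3, 105 and 171. Minor clones had 78.7, 113 and 168 in the female and 30.3, 59.5 and 129 in the male mouse. All 10 female tumours lay above the male mean and 5 lay above every male tumour. The difference was 0.95 (SE 0.17, interval 0.594 to 1.297, limma adjusted p = 0.00113).

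Within a segment the major clones held 207 ± 22.3 in the female (n = 3) and 110.1 ± 43.5 in the male mouse (n = 4) in SI10, and 232 ± 81.3 (n = 5) and 113 ± 20.8 (n = 6) in SI20. The female SI20 clones include tumour 22 (367), whose minor clone is labelled SI10. *Fah* was again lower in the female mouse, by -0.71 (SE 0.17, limma adjusted p = 0.00893), with 0 of 10 female tumours above the male mean. These 2 of 5 members stand against 13.8% of 16428 genes. *Afmid* (0.26, interval -0.10 to 0.62) and *Gstz1* (0.04, interval -0.18 to 0.26) did not pass there.

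For *Hpd*, the difference between undivided and divided tumours had opposite signs in the mice, and its variation between them was tested after the data had been seen. In the female mouse the undivided tumours averaged 6.64 ± 0.92 and the divided tumours 7.29 ± 0.31 on the log2 scale (SD, n = 10 each). In the male mouse the averages were 6.69 ± 0.72 (n = 13) and 6.35 ± 0.44 (n = 10). The difference of the differences was -0.99 (SE 0.39, interval -1.78 to -0.21), with a limma p of 0.0148 and an adjusted p of 0.283. None of the 5 members passed, against 0% of 16489 genes (2095 with an unadjusted p under 0.05). Intervals without 0 were also seen for *Afmid*, with a smaller adjusted p (-0.91, interval -1.43 to -0.39, limma adjusted p = 0.200), and for *Gstz1* (-0.36, interval -0.68 to -0.05, adjusted p = 0.321).

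Other genes of the 2 routes also differed between the mice, in contrasts where 19.1% of all genes (undivided tumours) and 13.8% (divided tumours) did, and nothing particular to the routes is read from these counts. *Tat*, which makes the substrate of HPD, was higher in the female mouse in undivided (3.27, limma adjusted p = 0.00227) and divided tumours (3.60, adjusted p = 0.000366). Of 16 other tyrosine genes tested in undivided tumours, *Tat* was the 1 that was higher and 4 were lower, namely *Ddc* (-1.10), *Maoa* (-1.80), *Maob* (-1.76) and *Pcbd2* (-0.64). *Ddc* makes dopamine and serotonin, and the monoamine oxidases degrade them. Of 7 other tryptophan genes tested 2 were lower in the female mouse, *Ido1* (-1.64) and *Tph1* (-0.78), and 0 were higher. Of 6 carriers, *Slc7a5* (0.92) and *Slc36a4* (0.80) were higher and *Slc16a10* (-0.96) was lower. In the same undivided tumours 7 of 9 enterocyte genes and 3 of 9 goblet genes were lower in the female mouse and 0 were higher, and the part of these cell types in the differences was not tested. In divided tumours the counts were 2 of 9 enterocyte and 0 of 9 goblet genes.

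*Hpd* was then set against *Atoh1*, the factor of the secretory lineage, and *Muc2*, the main mucin of goblet cells. In the 23 undivided tumours, with values centred within each mouse, *Hpd* and *Atoh1* gave a Pearson's r of 0.576 (permutation p = 0.00737) and a Spearman's rho of 0.382 (permutation p = 0.0833). Adjusted over the 14 relations tested (7 members with each of the 2 genes), the values were 0.103 and 0.471, so the relation did not pass. Without the 2 tumours farthest from the median of *Atoh1*, r was 0.449. It was 0.828 in the female mouse (n = 10) and 0.194 in the male mouse (n = 13), and this difference between the mice was not tested. Leaving out 1 tumour at a time, a step added after the data had been seen, gave 0.455 to 0.739. The highest value came without tumour 18 of the male mouse. That tumour held the most *Hpd* of the male undivided tumours (239 normalised reads) at a low *Atoh1* (105, male median 188).

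*Hpd* and *Muc2* gave an r of 0.407 (permutation p = 0.0639, adjusted 0.447) and a rho of 0.340 (permutation p = 0.121, adjusted 0.471), with 0.449 without the 2 farthest tumours, 0.477 in the female and 0.329 in the male mouse. None of the other members passed with either gene, their r lying between -0.348 (*Gstz1* with *Muc2*) and 0.218 (*Afmid* with *Muc2*). Of the clone differences in the 20 divided tumours, where both *Hpd* and *Atoh1* were higher in most major clones, r was 0.540 between *Hpd* and *Atoh1* and 0.502 between *Hpd* and *Muc2*, given as a description.

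**Figure D4:**
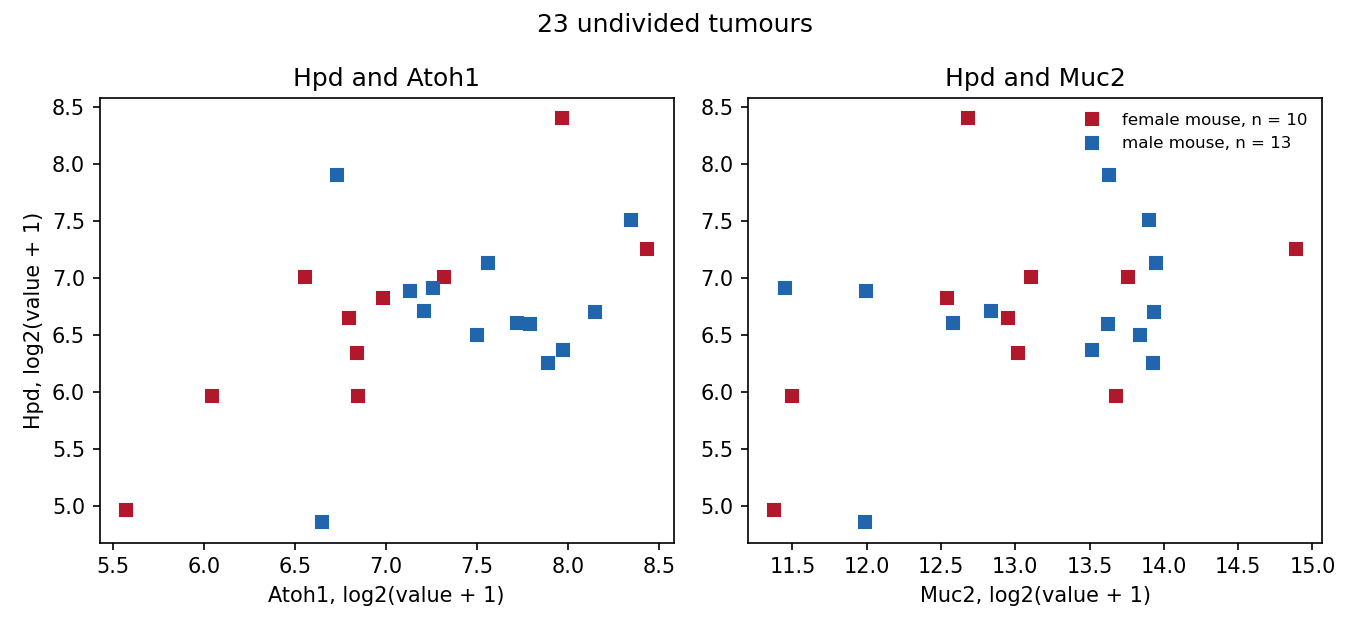
*Hpd* against *Atoh1* and against *Muc2* in the 23 undivided tumours, all as log2(value + 1), with 1 point per tumour and the mouse by colour. The female tumours rise with *Atoh1* (r = 0.828) and the male tumours show little slope (r = 0.194). The male value includes tumour 18, which has the highest male *Hpd* at a low *Atoh1*.

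Many genes followed *Hpd* more closely than these did. By r over the 23 undivided tumours, centred within mouse, *Atoh1* ranked 432 and *Muc2* 1442 among 16510 other genes. The 5 with the highest r were *Baiap2l2* (0.850), *Aldh1b1* (0.848), *Clps* (0.827), *Lyve1* (0.808) and *Ighm* (0.806). Of these, *Aldh1b1* was at r = 0.855 in the female and 0.899 in the male mouse. *Baiap2l2* was at 0.814 and 0.893, *Clps* at 0.940 and 0.686, *Lyve1* at 0.875 and 0.742, and *Ighm* at 0.818 and 0.792. In the clone differences, which this ranking did not use, r with *Hpd* was 0.548 for *Aldh1b1*, 0.483 for *Baiap2l2*, 0.404 for *Lyve1*, 0.205 for *Clps* and 0.063 for *Ighm* (n = 20). The points share library and depth, and no p is given.

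Members were also compared with each other in undivided tumours, with values centred within mouse. The closest pair was *Hpd* and *Afmid* (r = 0.674, n = 23), followed by *Gstz1* and *Afmid* (0.637) and *Fah* and *Afmid* (0.630). The lowest was *Hpd* and *Gstz1* (0.196). In the clone differences the same 10 pairs of members ran from -0.258 (*Hpd* and *Fah*) to 0.212 (*Gstz1* and *Kynu*), and *Hpd* and *Afmid*, both higher in major clones, stood at -0.243 (n = 20).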

How the data were processed

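RNA sequencing of 63 tumour libraries was analysed from 1 table of normalised counts. The authors made this signal by trimming reads with Trimmomatic 0.39, estimating gene counts with Salmon 1.9.0 against Gencode M30 (GRCm39) and scaling them between libraries before they deposited it. Beyond the name of the values and the mention of DESeq2, the scaling is not described. Whole reads were not recovered from the values and read depth is unknown, so no count interval is given and precision comes from the spread between tumours.

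Major and minor classes were taken from the study's source data by library name, and clones were paired by tumour number. Deviations from the class means, taken over all genes tested, had a median r of 0.265 between clones of a tumour (range 0.0282 to 0.620, over 0.1 in 17 of 20 pairs) and -0.0198 between clones of different tumours. The class means were taken over both mice, and clones of a tumour share a mouse, which also raises r. These values therefore cannot check the pairing within a mouse. All 63 libraries were used. Tumours are the replicates, but they come from 2 mice, so that p-values measure the spread between tumours of these animals.

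The test was limma 3.58.1 in R 4.3.3, with a trended prior, on log2(value + 1) of genes whose mean in the compared libraries reached 10, a scale that understates changes of low genes, with Benjamini-Hochberg adjustment over all genes and a threshold of 0.05. Tumour was the block for clones, and mouse was a covariate for the segments and for undivided against divided tumours. Between the mice, segment was a covariate in undivided tumours. In divided tumours and clone differences there was none, so that the SI30 tumours of the female mouse were included there. Correlations used 100000 permutations within mice (scipy 1.17.1). The steps were tested on simulated data. Positions, exon lengths and upstream sequence came from Gencode M39 on GRCm39, a later release on the authors' build.

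The members and lists were chosen with earlier results of these data known. Named genes are the 7 members, the listed pathway genes past the threshold (at most 4 a list), the 5 genes most like *Hpd*, *Atoh1*, *Muc2* and *Rn18s*. *Hpdl* and *Tat* in the clone comparison were named after their values were seen. Alternatives covered the pseudocount, the filter, normalization, the block, the trend, each mouse alone and single tumours. Single tumours were not left out in the comparisons between the mice. The result of 1 listed gene is not reported here.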

Additional observations from a re-analysis of the deposited data

Results flagged for a closer look

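Extreme values were looked for in 35 groups of 10 libraries, each 1 member in 1 clone class of 1 mouse or in the undivided tumours of the female mouse. The 13 undivided tumours of the male mouse were not screened. The highest or lowest value was compared with its neighbour by Dixon's criterion, which marks about 1 in 20 groups by chance, and 6 were marked. *Hpd* stood at 367 normalised reads in major clone 22 of the female mouse, from the tumour whose clones are labelled with different segments, while the other major clones of that mouse ran up to 238. *Kynu* was far below the others in both clones of tumour 31 of the male mouse, at 1.28 in the major clone and 0 in the minor clone. Among minor clones of the male mouse, *Fah* was lowest in tumour 19, at 195, and *Haao* reached 12.1 in tumour 20. *Hgd* was listed at 0 in undivided tumour 5 of the female mouse, the undivided tumour with the highest *Hpd* (338).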

How the results depend on the processing

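Of 517 values under other settings, 484 were taken as unchanged. Of these, 77 were counts of members equal or close to the main count. The other 407 kept their direction and side of the threshold or, in the clone comparison, moved by less than the spread between tumours. In that comparison this holds values of changed sign, *Gstz1* at -0.014 with the same sum without *Rn18s* and -0.053 in the male mouse alone, and *Kynu* at -0.09 in the female mouse alone. Outside the clone comparison 25 changed sign, none of them with an adjusted p under 0.05. The count of 2 members in the clone comparison became 0 in the female mouse alone, 0 in the male mouse alone and 1 without the replicate block, that is without the pairing by tumour. Leaving out single tumours gave 2 to 3, with *Fah* added without tumour 19 of the female mouse (and also, to 3, with libraries scaled to the same sum without *Rn18s*, limma adjusted p = 0.0481), and 0 to 0 in the comparison of undivided with divided tumours and in both segment comparisons, while the *Hpd* clone difference stayed between 0.80 and 0.86. The count of 3 members between the mice in undivided tumours fell to 1 (*Fah*) when libraries were scaled to the same sum without *Rn18s*, which moved the median of all genes to 0.193. *Gstz1* also lost its call without the filter (limma adjusted p = 0.0615), where *Hgd* gained one in the opposite direction so that the count was again 3, and without the trend (0.0517). Over all genes, the 188 calls between clones became 366 after quantile normalization, 564 with the same sum, 85 without the filter, 89 without the trend, 1 without the replicate block, 33 with male tumours only and 0 with female tumours only. Leaving out 1 tumour gave 25 (tumour 20 of the male mouse) to 859 (tumour 19 of the female mouse) calls between clones, 7 to 73 between undivided and divided tumours, and 5 to 53 and 13 to 215 between segments of undivided and divided tumours. The 20 calls between undivided and divided tumours became 59, and 46 with the same sum, and 8 with segment as a covariate. Between the mice in undivided tumours 46.2% of calls were higher in the female mouse, and 69.9% with the same sum. The cause was not tested.

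Outside the clone comparison, signs changed as follows. For undivided minus divided tumours, *Gstz1* was -0.086 and *Afmid* -0.38 in the female mouse alone, and *Hpd* 0.34 and *Fah* 0.035 in the male mouse alone. For SI10 minus SI20 in undivided tumours, *Kynu* was 0.014 with a pseudocount of 5, *Afmid* -0.001 with the same sum, and *Hpd* 0.26 and *Kynu* 0.77 in the female mouse alone. Leaving out single tumours gave -0.329 to 0.022 for *Hpd*, -0.016 to 0.174 for *Fah* and -0.265 to 0.287 for *Kynu*, the latter reached without tumour 4 of the male mouse. In divided tumours, *Afmid* was 0.034 in the female and *Fah* -0.10 in the male mouse alone. Between the mice, *Kynu* was 0.14 with a pseudocount of 0.1 and 0.064 with the same sum, where *Hpd* was 0.087, and in divided tumours *Kynu* was -0.014 with a pseudocount of 5 and -0.013 after quantile normalization. Among the correlations, *Kynu* with *Muc2* was 0.025 with a pseudocount of 0.1 and 0.090 in the male mouse, *Kynu* with *Atoh1* -0.103 after quantile normalization and -0.369 in the female mouse, *Fah* with *Muc2* -0.008 with the same sum and -0.379 in the male mouse, *Fah* with *Atoh1* 0.273 without centring, 0.007 with centring by segment and 0.098 in the female mouse, and *Afmid* with *Atoh1* -0.140 in the male mouse.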

Other observations

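Genes of the aryl hydrocarbon receptor, for which kynurenine is a known ligand, also differed between the mice in undivided tumours. *Cyp1a1* was lower in the female mouse by a log2 difference of -3.38 (limma adjusted p = 0.00599) and *Nqo1* by -0.83 (0.00421), while *Cyp1b1* was higher (1.28, 0.0467), 3 of the 7 genes on that list, in both directions, where 19.1% of all genes passed. In divided tumours 0 of the 7 passed, where 13.8% of all genes did. The scarce *Hgd* was listed at 0 in 1 of 10 female and 7 of 13 male undivided tumours, and without the filter on low values its difference was 1.14 (limma adjusted p = 0.0274).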
